A study of Homo sapiens with 46 samples.

Results

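Cytoplasmic intermediate filament genes were followed across 46 RNA-seq libraries of DLD-1, an established human colorectal adenocarcinoma cell line. The 9 genes, out of 62756 in the count table, were taken by symbol: the type II keratins KRT8, KRT80 and KRT7, the type I keratins KRT18, KRT19, KRT20, KRT17 and KRT23, and the type III filament gene VIM (vimentin). No measured value entered the rule, but the genes were chosen with earlier results of these data known. The study asks what the loss of single nuclear lamins does to transcription. It used the parental line, whose genotype is labelled wild type, and 3 lines in which an endogenous lamin carries an auxin-inducible degron at its N-terminus: lamin A/C (LAC), lamin B1 (LB1) or lamin B2 (LB2). A degron is a tag that marks a protein for destruction once the small molecule auxin is added. All 4 lines were treated with 1 mM auxin, from a stock in DMSO, for 0, 16 or 96 h, so auxin itself was present in the parental samples as well. Whether the 0 h cells received DMSO, how many clones make up each tagged line, and how the receptor that the degron needs was supplied are not given in the sources used here. A replicate is a separate well, so the p-values measure only the spread between wells, which may be technical. There were 4 replicates in 10 groups and 3 in the other two, LB1 at 0 h and LB2 at 96 h.

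Keratins are obligate heteropolymers: a type I chain pairs with a type II chain, and simple epithelia such as that of the gut build their filaments from KRT8 with KRT18, KRT19 and KRT20. KRT20 is used by pathologists as a marker of the intestinal lineage, KRT7 as a marker that most colorectal tumours lack, and VIM as the filament of mesenchymal cells. Cytoplasmic filaments belong to the same protein superfamily as the lamins and connect to the nuclear envelope through plectin (PLEC) and a nesprin, and to cell junctions through desmosomes.

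The libraries held 479446 to 37309421 counts (median 11533218). Of the 6 libraries under 5000000 counts, 5 were 0 h samples. Markers of colorectal epithelium summed to 1212 to 2412 CPM (counts scaled to a library of 1000000) in the 46 libraries. EPCAM, the epithelial adhesion molecule, had a median of 460.4 CPM. VIL1, GPA33 and LGALS4 of the same list were low, at medians of 1.26, 0.467 and 0.321 CPM. Fibroblast markers summed to 0 to 6.8 CPM, with COL1A2 and DCN at 0 in every library, and leukocyte markers to at most 5.59 CPM. Endothelial markers summed to 2.18 to 17.5 CPM, and VWF among them (median 6.38 CPM) had counts in all 46 libraries. The degron acts on protein, so transcripts of LMNA, LMNB1 and LMNB2 do not check the loss. LMNA was at 738 ± 111 CPM (SD, n = 4) in the parental line and 435 ± 229.7 CPM (n = 4) in LAC before auxin. In bulk RNA, fewer cells of a type and less RNA per cell cannot be told apart.

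KRT8, KRT18 and KRT19 dominated the set in every group. Divided by the length of each gene's merged exons, group means were 502 to 845 CPM per kb for KRT8, 446 to 601 for KRT18 and 202 to 365 for KRT19. KRT80 followed at 28.7 to 71.2 CPM per kb and KRT20 at 19.7 to 46.6, ranges that overlap. KRT7 came next at 1.19 to 3.42 CPM per kb. KRT17 (0 to 0.452), VIM (0.0227 to 0.143) and KRT23 (0 to 0.0985) were near the detection limit on the same scale. The order of KRT8 and KRT18 depends on the group: the ratio of their levels per kb ran from 0.932 to 1.4 over the 12 groups. With the length of each gene's first-numbered transcript in GENCODE 29, a choice made after the data were seen, that ratio was 1.73 to 2.61, so KRT8 was above KRT18 in every group.

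**Figure D1:**
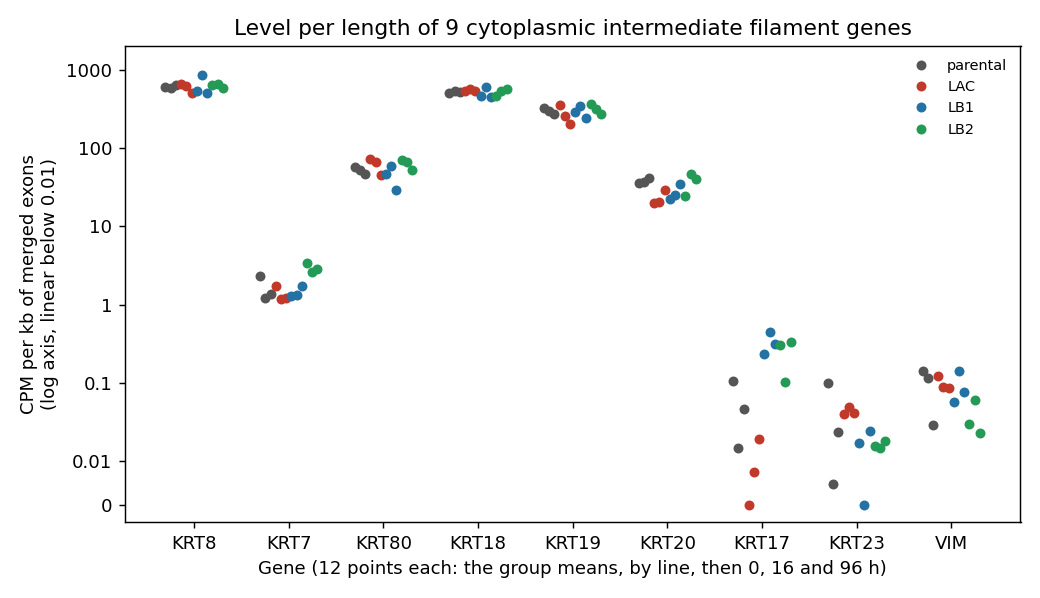
Level of each member in CPM per kb of merged exons (log axis, linear below 0.01) in the 12 groups, coloured by line and ordered 0, 16 and 96 h within each; each point is a group mean. KRT8, KRT18 and KRT19 lie at 202 CPM per kb or more in every group, and KRT17, VIM and KRT23 lie at 0.452 or less.

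Within the summed level per kb of the keratins, KRT8 took 38.1 to 44.7%, KRT18 30.9 to 40.9% and KRT19 15.3 to 22.8% of the group means. KRT80 took 2.3 to 4.49%, KRT20 1.26 to 2.87% and KRT7 at most 0.225%. Type I chains exceeded type II chains 1.09 to 1.41 times. That order rests on the gene length used: with the first-numbered transcripts, KRT8 took 55.3 to 62% and the type I to type II ratio was 0.579 to 0.758. The merged exons of KRT8 span 6881 bases, against 1882 in that transcript. These shares describe RNA, not filament protein.

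**Figure D2:**
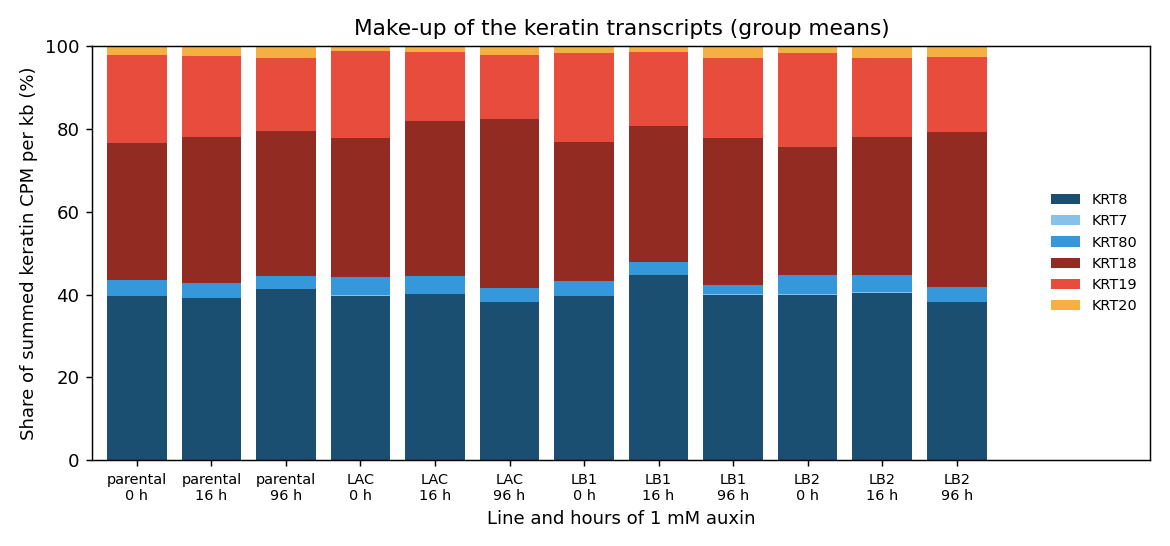
Share (percent) of each keratin in the summed CPM per kb of merged exons, 1 stacked bar for each of the 12 groups. KRT8, KRT18 and KRT19 fill nearly the whole bar in every group, and KRT18 varies most among them, from 30.9 to 40.9%.

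Tests compared each line at 16 and 96 h of auxin with its own 0 h group, the tagged lines' changes with the parental change, and the tagged lines with the parental line at the same time. Calls below mean an adjusted p under 0.05 in edgeR's quasi-likelihood test across 21484 genes, of which 7 of the 9 members were part. In the parental line, 1 of 7 was called at 16 h (KRT7, lower), where 9.01% of all tested genes were called. At 96 h in that line edgeR called 0 of 7 against 7.78% of all genes, with 2 at an unadjusted p under 0.05 (KRT7 and KRT80) and 2 called by DESeq2. In LAC, edgeR called 0 of 7 at 16 h (background 1.78%; 1 at an unadjusted p under 0.05, KRT19; 0 by DESeq2, which gave 1 of the 7 no adjusted p). At 96 h in LAC it called 3 of 7, KRT80 and KRT19 lower and KRT20 higher, where 15.4% of all genes were called. In LB1, edgeR called 0 of 7 at 16 h (background 1.5%; 3 at an unadjusted p under 0.05, KRT8, KRT18 and KRT80; 0 by DESeq2, with 1 given no adjusted p) and 2 of 7 at 96 h, KRT20 higher and KRT80 lower (background 3.17%). In LB2, 1 of 7 was called at each time, KRT20 higher both times, with backgrounds of 1.81% and 3.55%. These counts rest on 7 genes, and the 4 lines' comparisons each reuse their own 0 h samples.

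KRT20 encodes the type I keratin of differentiated enterocytes and goblet cells (ENSG00000171431.4, 17:40875889-40885242 on GRCh38, minus strand). Over all comparisons it was called 9 times, more often than any other member. Its promoter is printed for that, and because CDX2, a transcription factor known to act on intestinal genes, changed on auxin in these cells. The 250 bases before the RefSeq start (GRCh38.p14, chr17:40885243-40885492, minus strand, 5′ to 3′) are given with CATAAA in capitals, the opposite-strand match of TTTATG, a core of CDX binding sites; the match begins 29 bases before the start.
KRT20 promoter: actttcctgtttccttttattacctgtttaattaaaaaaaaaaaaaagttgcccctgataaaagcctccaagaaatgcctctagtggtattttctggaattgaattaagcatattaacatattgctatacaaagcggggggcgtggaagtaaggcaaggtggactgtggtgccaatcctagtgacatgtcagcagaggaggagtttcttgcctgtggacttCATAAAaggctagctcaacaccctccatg
Searched on both strands, TTTATG was in 9.6% of 35116 RefSeq promoters of that length, TATAAA in 10.7% (absent here), CACCC, a core of KLF sites, in 54.7% (1 match here, 11 bases before the start) and TGANTCA, an AP-1 site, in 6.6% (absent here). The window holds 2 CG dinucleotides against a median of 11, and 22.9% of promoters hold no more than that. Its GC content is 41.2% against a median of 58.0%. Such matches are descriptions of sequence, and binding was not measured. CATAAA differs by 1 base from TATAAA, the TATA box motif, so the marked stretch is not shown to be a CDX site. Of the 9 members, 3 (KRT8, KRT20 and VIM) had a promoter in the RefSeq table.

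Before auxin, KRT20 was lower in each tagged line than in the parental line. The parental 0 h libraries had 71.7, 69.8, 71.0 and 59.7 CPM (68 ± 5.62, SD, n = 4). LAC had 21.7, 45.6, 39.6 and 43.8 CPM (37.7 ± 11), and LB1 had 40.2, 38.5 and 48.1 CPM (42.3 ± 5.15, n = 3). LB2 had 31.0, 47.6, 53.8 and 51.0 CPM (45.8 ± 10.2). Every tagged library at 0 h lay below every parental one (of all genes, 8.28% did so in LAC, 8.92% in LB1, 5.99% in LB2). The log2 differences were −0.82 (SE 0.15, edgeR adjusted p = 0.000114) for LAC, −0.67 (SE 0.17, edgeR adjusted p = 0.00793) for LB1 and −0.54 (SE 0.15, edgeR adjusted p = 0.0157) for LB2. At 0 h, 2 of 7 members were called in LAC against the parental line (the other was KRT17, which passed the filter through LB1 and LB2), where 15.8% of all genes were called. In LB1 and LB2, KRT20 was the 1 member called, with backgrounds of 4.05% and 8.21%.

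The 0 h difference held under all 17 alternatives for LAC, with edgeR or DESeq2 adjusted p up to 0.0222. For LB1 it was lost without LB1 0 h replicate 1 (−0.62, edgeR adjusted p = 0.085), without replicate 2 of that group (−0.61, edgeR adjusted p = 0.0692) and with no filter on low counts (−0.61, edgeR adjusted p = 0.0715), among alternatives from 7.34e-06 to 0.085. For LB2 it was lost in 5 of 17 alternatives (adjusted p from 1.91e-07 to 0.117). Those left out parental 0 h replicate 1 (−0.50, edgeR adjusted p = 0.0575) or 2 (−0.50, 0.0667) or LB2 0 h replicate 1 (−0.40, 0.0786), dropped the filter (−0.50, 0.0946), or fitted the compared groups alone (−0.53, 0.117).

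On auxin, KRT20 rose in all 3 tagged lines by 96 h and, in LB2, already at 16 h. LAC went from 37.7 ± 11 CPM at 0 h to 31.7, 38.9, 43.5 and 43.7 CPM at 16 h and 52.7, 57.7, 59.0 and 55.0 CPM at 96 h. All 96 h libraries were above all 0 h libraries (as for 9.03% of all genes), and the 16 h libraries overlapped them. The 96 h change in LAC was 1.45-fold (log2 0.54, SE 0.15, edgeR adjusted p = 0.00859), while the 16 h value was log2 0.03 (edgeR adjusted p = 0.936). LB1 had 46.2, 47.4, 47.7 and 49.7 CPM at 16 h (log2 0.16, edgeR adjusted p = 0.689) and 71.1, 58.2, 77.0 and 60.6 CPM at 96 h. The 96 h libraries were again all above the 0 h ones (as for 9.9% of all genes), 1.56-fold in the fit (log2 0.64, SE 0.16, edgeR adjusted p = 0.0152).

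LB2 had 70.4, 88.6, 117 and 80.5 CPM of KRT20 at 16 h and 78.0, 73.8 and 76.3 CPM at 96 h. The value of 117 comes from 54 counts in the library of 479446 counts, the least deep of all. No LB2 library on auxin overlapped those at 0 h (of all genes, 2.43% were higher in this way at 16 h and 8.15% at 96 h). KRT20 changed 1.81-fold at 16 h (log2 0.86, SE 0.15, edgeR adjusted p = 0.00068) and 1.62-fold at 96 h (log2 0.70, SE 0.16, edgeR adjusted p = 0.00498). Both calls were lost when the compared groups were fitted alone, at edgeR adjusted p = 0.617 and 0.161, the upper ends of ranges that start at 2.07e-07 and 1.53e-06. The parental line had 62.0, 70.5, 77.2 and 68.6 CPM at 16 h and 82.9, 75.0, 80.8 and 80.9 CPM at 96 h. Its 96 h libraries lay above those at 0 h without overlap as well (as for 9.23% of all genes). The KRT20 change of log2 0.23 did not pass (edgeR adjusted p = 0.356), and the 16 h value was log2 0.03.

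The KRT20 calls at 96 h in LAC and LB1 were lost when certain single libraries were left out. The LAC 96 h call was lost without LAC 0 h replicate 1, a library with 21.7 CPM (log2 0.39, edgeR adjusted p = 0.0699), and when the compared groups were fitted alone (log2 0.55, edgeR adjusted p = 0.0936), among alternatives from 0.000808. The LB1 96 h call was lost without LB1 0 h replicate 1 (0.60, edgeR adjusted p = 0.107) or 2 (0.60, 0.0951) or LB1 96 h replicate 3 (0.57, 0.0616), in a range from 0.000358 to 0.107.

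Whether the rise in a tagged line exceeded the parental one was tested as a difference of changes. For KRT20 at 96 h these differences were log2 0.31 in LAC (edgeR adjusted p = 0.375), 0.42 in LB1 (edgeR adjusted p = 0.333) and 0.47 in LB2 (edgeR adjusted p = 0.354). At 16 h in LB2 the difference was 0.83 (SE 0.21, edgeR adjusted p = 0.622), with 0.78 and an adjusted p of 0.0266 once each library's trend with GC content and gene length was removed, among 25 alternatives from 0.00645 to 1. Across the 6 such comparisons edgeR called 0 of 42 member differences, 11 had an unadjusted p under 0.05, and DESeq2 called 0, with 3 given no adjusted p. Of all tested genes, 0.116% (LAC 16 h), 7.4% (LAC 96 h), 0.0279% (LB1 16 h), 1.04% (LB1 96 h), 0.00465% (LB2 16 h) and 0.368% (LB2 96 h) were called in them. A change called in a tagged line and not in the parental line was therefore not shown to differ from it for any member.

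Compared with the parental line on auxin, in comparisons added after the data were seen, KRT20 in LAC was still lower at 16 h (log2 −0.81, SE 0.15, edgeR adjusted p = 0.000144, called in all 17 alternatives). Every LAC library was below every parental one (as for 6.3% of all genes). LAC at 16 h had 1 of 7 members called against 3.36% of all genes. At 96 h the LAC libraries were still all below the parental ones (as for 4.58% of all genes). The KRT20 difference of −0.51 did not pass (edgeR adjusted p = 0.0614, called in 6 of 17 alternatives, range 3.42e-05 to 0.276). There edgeR called 0 of 7 members against 1.36% of all genes, with 2 at an unadjusted p under 0.05 (KRT19 and KRT20) and 1 called by DESeq2. LB1 was lower at 16 h (−0.54, SE 0.15, edgeR adjusted p = 0.018) and at 96 h the difference was −0.26 (edgeR adjusted p = 0.222). LB2 differed by 0.29 at 16 h (edgeR adjusted p = 0.246) and by −0.07 at 96 h (edgeR adjusted p = 0.842).

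The LB1 16 h call was lost in 6 of 17 alternatives (adjusted p from 1.28e-05 to 0.0775): with no filter on low counts (edgeR adjusted p = 0.071), without parental 16 h replicate 2 (−0.52, 0.0775) or 3 (−0.49, 0.0759), or without LB1 16 h replicate 1 (−0.51, 0.077), 2 (−0.53, 0.0699) or 3 (−0.52, 0.0713). Over the 12 groups KRT20 ranged 2.37-fold, from 37.7 CPM in untreated LAC to 89.2 ± 20.2 CPM (n = 4) in LB2 at 16 h.

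CDX2, the homeobox factor that specifies intestinal epithelium, is not one of the 9 genes and is given beside KRT20 because of the match above. It stood at 88.7 ± 13.8 CPM (SD, n = 4) in untreated parental cells, 219 ± 20.5 at 16 h and 209 ± 25.7 at 96 h. This rise was log2 1.30 at 16 h (edgeR adjusted p = 1.59e-09), and KRT20 gave log2 0.03 in the same cells. In LAC, CDX2 had 127 ± 8.98, 158 ± 6.64 and 128 ± 15.6 CPM at 0, 16 and 96 h, and its change fell short of the parental one by log2 −1.22 at 96 h (edgeR adjusted p = 7.48e-05). LB1 had 114 ± 6.95, 206 ± 20.9 and 172 ± 16.1 CPM of CDX2 at 0, 16 and 96 h. LB2 had 69.3 ± 16, 153 ± 28.6 and 116 ± 1.97 CPM. From 0 to 16 h, mean KRT20 went from 42.3 to 47.7 CPM in LB1 and from 45.8 to 89.2 CPM in LB2. The part of CDX2 in the level of KRT20 was not tested. Of 12 tested intestinal transcription factors in a list of 15, 3 rose and 0 fell in parental cells at 96 h, 2 rose and 2 fell in LAC (EHF log2 1.13 and HNF4G 1.30 against HNF4A −0.69 and GATA6 −0.57), 3 rose and 1 fell in LB1, and 2 rose and 0 fell in LB2. Of all genes, 7.78%, 15.4%, 3.17% and 3.55% were called in these 4 comparisons in either direction. Free of the GC and length trend, 4 rose in the parental line and 2 rose and 1 fell in LB2; with library size only, 3 rose in LAC and in LB2.

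**Figure D3:**
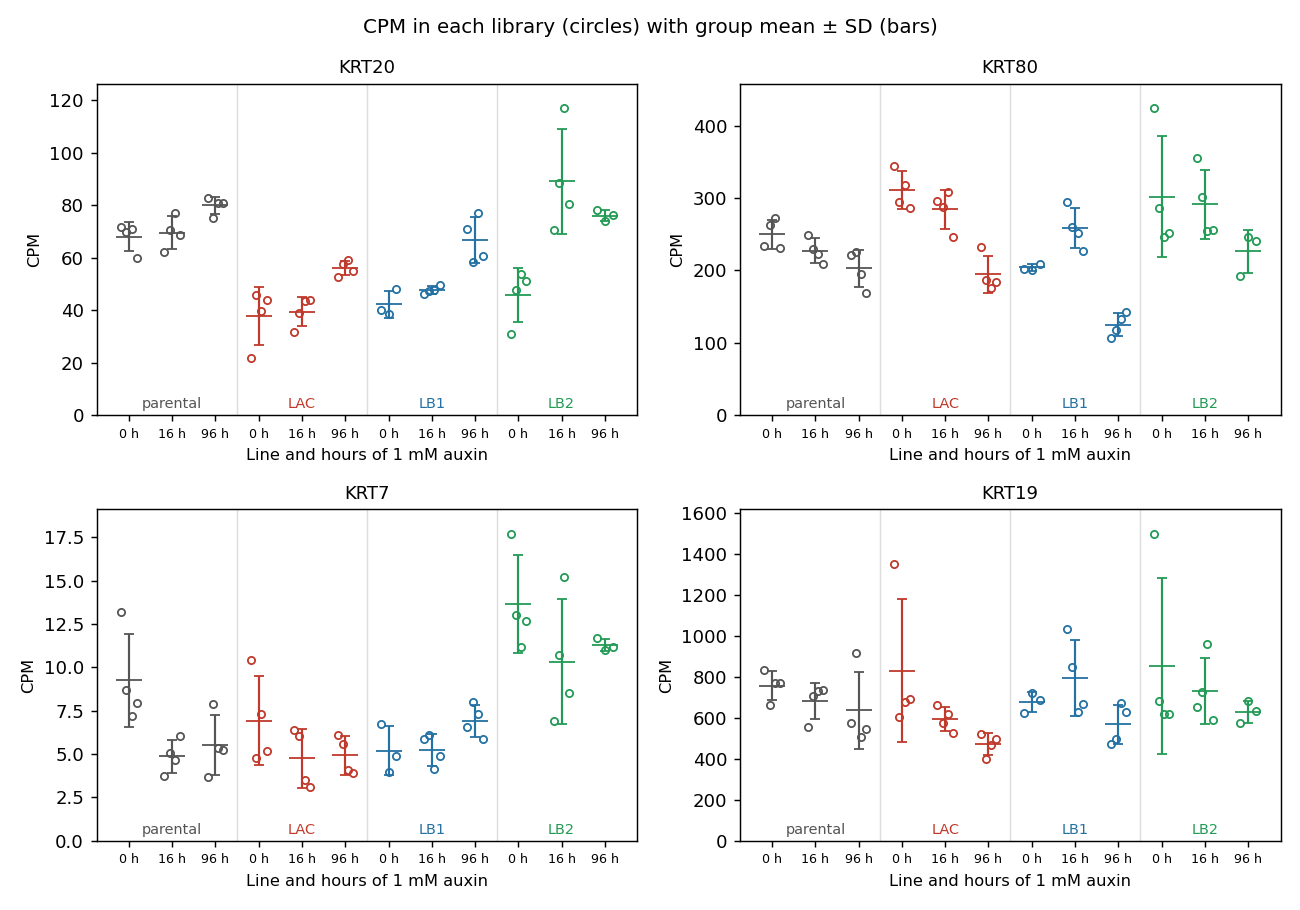
CPM of KRT20, KRT80, KRT7 and KRT19 in each library (circles) with group mean ± SD (bars), by line and hours of auxin; vertical axes start at 0 and differ between panels. KRT20 in the tagged lines starts below the parental 59.7 to 71.7 CPM and is higher at 96 h in each. The parental line is higher at 96 h as well, at 75 to 82.9 CPM. KRT80 is lowest in LB1 at 96 h.

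KRT80 is a type II keratin found in many epithelia (ENSG00000167767.14, 12:52168996-52192014, minus strand). It fell in LAC and LB1 by 96 h. In LAC the 0 h libraries had 344, 295, 318 and 286 CPM (311 ± 25.9, SD, n = 4), those at 16 h 296, 287, 308 and 246 CPM, and those at 96 h 232, 186, 175 and 184 CPM (194 ± 25.7). All 96 h libraries were below all 0 h libraries (as for 8.53% of all genes). The KRT80 change was log2 −0.68 (SE 0.14, edgeR adjusted p = 0.000461), and the call held in all 17 alternatives (adjusted p up to 0.0189). Without each library's trend over GC content and length the change was −0.43. In LB1 the libraries had 202, 200.5 and 209 CPM at 0 h, 295, 260.4, 252 and 227 at 16 h, and 107, 118, 133 and 142 at 96 h (125 ± 15.6, n = 4). The level at 16 h lay above and that at 96 h below the range at 0 h (as for 9.94% and 8.8% of all genes). The 16 h value of log2 0.34 did not pass (edgeR adjusted p = 0.244), and the 96 h change was 1.63-fold lower (log2 −0.71, SE 0.15, edgeR adjusted p = 0.00168), called in all 16 alternatives.

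KRT80 was also below the 0 h range in the other lines at 96 h, without passing. The same range rule held for 7.43% of all genes in the parental line and 5.3% in LB2. The parental line went from 233, 262, 272 and 231 CPM to 221, 225, 195 and 169 CPM (log2 −0.30, edgeR adjusted p = 0.164). LB2 went from 424, 286, 246 and 251 CPM to 192, 246 and 240 CPM, a pair of groups that meet at 246 CPM (log2 −0.41, edgeR adjusted p = 0.119). The differences from the parental change were −0.37 in LAC (edgeR adjusted p = 0.227) and −0.40 in LB1 (edgeR adjusted p = 0.298), neither called. Against the parental line at 96 h, in a comparison added after the data were seen, KRT80 in LB1 was lower by log2 −0.70 (SE 0.14, edgeR adjusted p = 0.000203), called in all 17 alternatives. The LB1 libraries lay below the parental ones without overlap (as for 12.9% of all genes). There 2 of 7 members were called against 17.1% of all genes. The other was KRT17, higher, which passed the filter through LB1 and LB2, so its call cannot be weighed against that share.

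KRT7, a type II keratin of ductal epithelia (ENSG00000135480.17, 12:52232520-52252186, plus strand), was present at low level. Its merged exons share 282 bases with the antisense gene KRT7-AS, and whether counting used strand is not given in the sources used here. Parental cells had 13.2, 8.67, 7.17 and 7.97 CPM at 0 h, 3.73, 5.09, 4.63 and 6.03 at 16 h, and 3.68, 7.88, 5.35 and 5.24 at 96 h. The 16 h libraries were all below those at 0 h (as for 8.96% of all genes), and the 96 h libraries overlapped them. The 16 h change was log2 −0.95 (SE 0.25, edgeR adjusted p = 0.014). It was lost without parental 0 h replicate 1, which had 13.2 CPM (−0.68, edgeR adjusted p = 0.121), and without parental 16 h replicate 1 (−0.84, edgeR adjusted p = 0.0637), in a range from 0.00184. The 96 h value was −0.76 (edgeR adjusted p = 0.0525; called in 9 of 17 alternatives, 0.00789 to 0.287). It passed, for example, without parental 0 h replicate 3 (−0.86, edgeR adjusted p = 0.0452) or parental 96 h replicate 2 (−0.95, 0.0276).

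LB2 held the highest KRT7 level, with 17.7, 13.0, 11.2 and 12.7 CPM at 0 h, 6.9, 10.7, 15.2 and 8.54 at 16 h, and 11.7, 11.0 and 11.2 at 96 h. At 96 h each of these lay above each parental library (as for 11.8% of all genes), 2.05-fold in the fit (log2 1.03, SE 0.26, edgeR adjusted p = 0.00873, called in 16 of 16 alternatives). At 16 h LB2 lay above the parental line without overlap as well (as for 6.23% of all genes). The KRT7 value was log2 0.89 (SE 0.26, edgeR adjusted p = 0.0162). That call was lost without parental 16 h replicate 1 (0.79, edgeR adjusted p = 0.0709) and without LB2 16 h replicate 2 (0.73, edgeR adjusted p = 0.124), among alternatives from 0.000247. Before auxin the difference was 0.50 (edgeR adjusted p = 0.235). LB2 against the parental line had 2 of 7 members called at both 16 and 96 h, KRT7 and KRT17, with backgrounds of 9.97% and 7.14%. KRT17 passed the filter through LB1 and LB2, where it is high, so its calls cannot be weighed against these backgrounds. Both comparisons were added after the data were seen. The KRT7 change in LB1 differed from the parental change at 96 h by log2 1.07 (SE 0.38, edgeR adjusted p = 0.142), called in 2 of 24 alternatives (0.0237 to 0.317).

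KRT8 and KRT18 are the founding pair of simple epithelia, and their genes lie next to each other on chromosome 12 on opposite strands (KRT8 ENSG00000170421.13, 12:52897187-52949954, minus; KRT18 ENSG00000111057.11, 12:52948871-52952906, plus). Their merged exons overlap by 525 bases, whose reads cannot be told apart without strand. Neither gene was called in any of the 23 comparisons. LB1 at 16 h came closest. There KRT8 had 7977, 5924, 4732 and 4629 CPM against 3315, 4010 and 3718 CPM at 0 h, and KRT18 had 1884, 2020.1, 1765 and 1706 CPM against 1324, 1459 and 1393 CPM. Both genes were higher in every 16 h library than in any 0 h library (as for 9.94% of all genes). The log2 values were 0.66 for KRT8 (SE 0.21, edgeR adjusted p = 0.0877) and 0.41 for KRT18 (SE 0.12, edgeR adjusted p = 0.0766). Once that trend over GC content and length was taken out, KRT8 gave 0.59 and passed (edgeR adjusted p = 0.0108), among 16 alternatives from 0.00651 to 0.28, of which 6 passed; 2 of those left out LB1 16 h replicate 3 (0.79, 0.0464) or 4 (0.78, 0.0373). By 96 h in LB1, KRT8 was at 2909, 2791, 4136 and 4000.5 CPM and KRT18 at 1143, 1182, 1640.1 and 1511 CPM, overlapping 0 h.

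In the other lines KRT18 stayed between group means of 1391 and 1726 CPM. It was above the 0 h range in LB2 at 96 h (as for 8.15% of all genes), with 1494, 1810.3 and 1866 CPM against 1359, 1441, 1349.6 and 1416 CPM. The value was log2 0.31 (edgeR adjusted p = 0.174, called in 3 of 16 alternatives, 0.0175 to 0.521). KRT18 was the steadiest of the tested members, with a 1.35-fold range of group means against 1.68-fold for KRT8. In LAC at 96 h its log2 value was 0.00, while KRT8 gave −0.40 (edgeR adjusted p = 0.161).

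**Figure D4:**
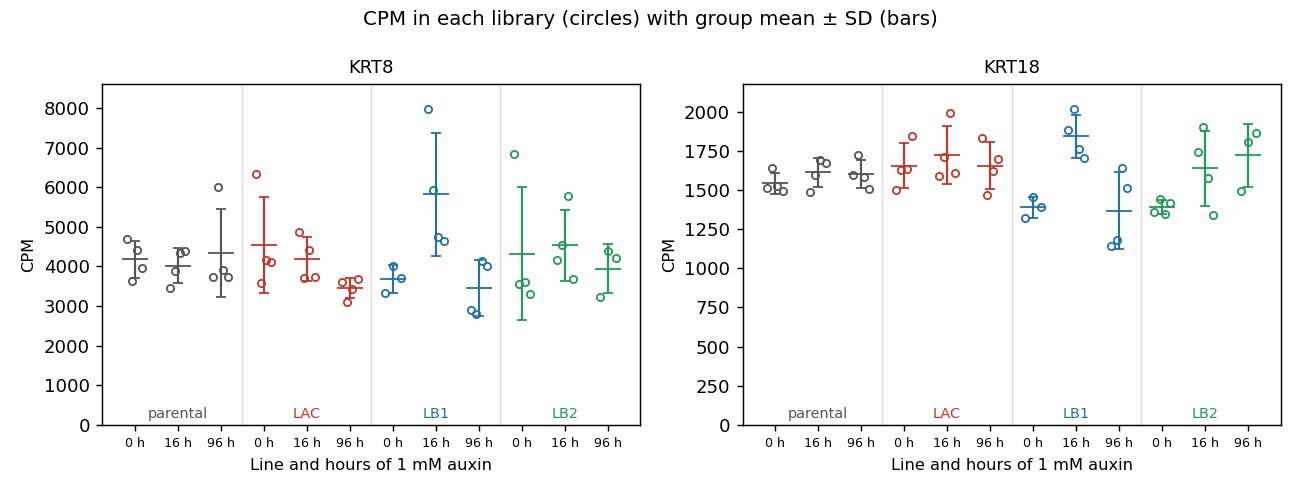
CPM of KRT8 and KRT18 in each library (circles) with group mean ± SD (bars), by line and hours of auxin. In LB1 the 16 h libraries of both genes lie above those at 0 h; single high KRT8 libraries are seen in parental 96 h (6007), LAC 0 h (6330.1) and LB2 0 h (6826).

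KRT19 is the smallest keratin and lacks most of the tail domain (ENSG00000171345.13, 17:41523617-41528308, minus strand). It was lower in LAC at 96 h. The 0 h libraries had 1351, 603, 675 and 689 CPM, those at 16 h 662, 575, 618 and 523 CPM, and those at 96 h 521, 397, 467 and 498 CPM (471 ± 53.8, SD, n = 4). All 96 h libraries were below those at 0 h (as for 8.53% of all genes), 1.76-fold in the fit (log2 −0.81, SE 0.22, edgeR adjusted p = 0.00687). Without LAC 0 h replicate 1, the library at 1351 CPM, the value was −0.46 and did not pass (edgeR adjusted p = 0.138), nor did it when the compared groups were fitted alone (−0.83, edgeR adjusted p = 0.0614), among alternatives from 0.000799. Free of the GC and length trend it was −0.31 (edgeR adjusted p = 0.0452). The difference from the parental change was −0.56 (edgeR adjusted p = 0.256). In no other comparison was KRT19 called; its group means ran from 471 CPM to 854 CPM, the latter in untreated LB2 with libraries at 1496, 682, 619 and 617 CPM.

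KRT8 and KRT19 shared their high libraries. In parental 96 h replicate 2, LAC 0 h replicate 1 and LB2 0 h replicate 1, KRT8 was at 6007, 6330.1 and 6826 CPM and KRT19 at 916, 1351 and 1496 CPM, each the highest of its group. KRT18 in these libraries was at 1723, 1502 and 1359 CPM, the highest of its group only in the first. The same libraries deviated from the other replicates of their group along GC content: over 8547 genes, Spearman's rho between GC content and the deviation was 0.70, 0.67 and 0.70. In LB1 16 h replicate 1, with KRT8 at 7977 and KRT19 at 1032 CPM, rho was 0.71. Not every such library had both genes high: LAC 96 h replicate 1, with rho 0.66, had the highest KRT19 of its group (521 CPM) but not the highest KRT8 (3601 CPM). GC content is 56.2% in the longest transcript of KRT8, 61.8% in that of KRT19, 55.7% in that of KRT18 and 45.7% in that of KRT20. KRT20 was the lowest of its group in parental 96 h replicate 2 (75 CPM), LAC 0 h replicate 1 (21.7) and LB2 0 h replicate 1 (31). The same held in LB1 16 h replicate 1 (46.2 CPM) and LAC 96 h replicate 1 (52.7). It did not hold in LB1 96 h replicate 3, with rho 0.53 and the highest KRT8 (4136 CPM) and KRT19 (670.2 CPM) of its group. KRT20 was the highest of its group there as well, at 77 CPM. The KRT20 levels at 0 h in LAC and LB2, and the changes from them, include replicate 1 of those groups. Fold changes of whole comparisons also followed GC content across genes, with rho of −0.71 in LAC at 16 h, −0.66 in LAC at 96 h and −0.48 in LB2 at 16 h. After the trend was removed these were −0.02, −0.04 and 0.01, and the LAC 96 h values of KRT19 and KRT80 moved from −0.81 to −0.31 and from −0.68 to −0.43, while KRT20 moved from 0.54 to 0.46. What set these libraries apart was not tested.

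**Figure D5:**
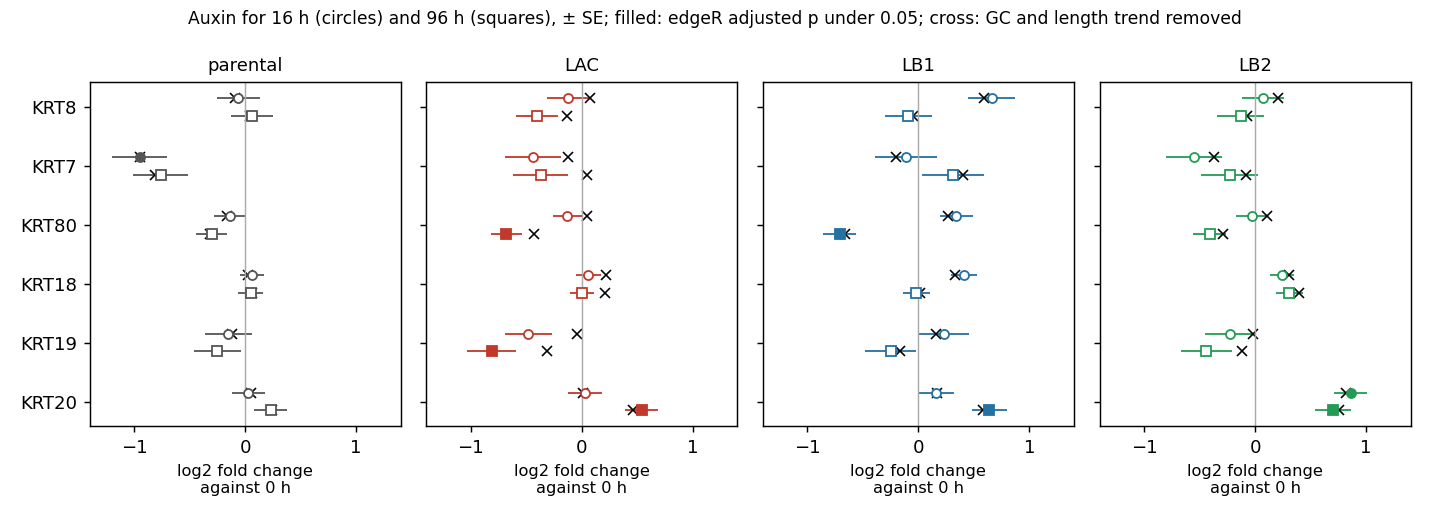
Log2 fold change on auxin (16 h circles, 96 h squares, each against 0 h) of KRT8, KRT7, KRT80, KRT18, KRT19 and KRT20 in the 4 lines; bars are ± 1 SE, filled points are called at an adjusted p under 0.05, and crosses give the value free of the GC and length trend. At 96 h KRT20 is above 0 and KRT80 below 0 in all 4 lines. KRT20 is called at 96 h in the 3 tagged lines and not in the parental line, but edgeR called no KRT20 difference from the parental change.

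KRT17, a type I keratin induced in stressed and injured epithelia (ENSG00000128422.18, 17:41619442-41624842, minus strand), was at the edge of detection, with most of its counts in LB1 and LB2. Over the libraries of a group, parental cells had 10, 2 and 6 counts at 0, 16 and 96 h, and LAC had 0, 2 and 5. LB1 had 34, 62 and 51 counts, and LB2 had 38, 25 and 40. In LB1 at 16 h the libraries had 15, 11, 12 and 24 counts, against 0, 1, 0 and 1 in the parental line. CPM over the group was 3.1 times the parental level in LB1 at 0 h (95% interval 1.5 to 7.03), 33.9 times at 16 h (8.99 to 286) and 6.56 times at 96 h (2.82 to 18.7). In LB2 the ratios were 3.36 (1.64 to 7.56), 11.6 (2.89 to 101) and 6.47 (2.73 to 18.7). These intervals cover counting error only. Single parental libraries moved these ratios. Without parental 16 h replicate 4, which leaves 1 parental count, they were 60.2 (10.4 to 2415) in LB1 and 20.6 (3.36 to 844) in LB2 at 16 h. All 6 parental counts at 96 h were in replicate 4, and without it the parental group is at 0, LB1 at least 9.53-fold higher and LB2 at least 9.4-fold higher, against a floor of 3 counts over the group.

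KRT17 entered the tests through LB1 and LB2, which held 250 of its 275 counts. With the compared groups fitted alone it did not pass the filter on low counts in any comparison of a tagged line with the parental line. Its p-values against the parental line therefore come from a gene that was tested for its level in LB1 and LB2, and they are given as descriptions. In the comparisons added after the data were seen, the adjusted p of edgeR was 0.000606 in LB1 at 16 h (under 0.05 in the 15 alternatives that gave one), 0.0256 in LB1 at 96 h, 0.0392 in LB2 at 16 h and 0.0494 in LB2 at 96 h, each with KRT17 higher. LB1 at 16 h had 2 of 7 members called, KRT17 and KRT20, against 4.34% of all genes, a share against which the KRT17 call cannot be weighed. The later LB1 call was lost without parental 96 h replicate 1 (edgeR adjusted p = 0.0952), 2 (0.103) or 3 (0.0634) or LB1 96 h replicate 2 (0.0556), in a range from 0.000924. The LB2 call at 16 h was lost without any of parental 16 h replicates 1 (edgeR adjusted p = 0.103), 2 (0.171) and 3 (0.0817) or LB2 16 h replicates 2 (0.118) and 4 (0.0761), in a range from 0.0242.

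The LB2 call at 96 h held in 8 of 15 alternatives (0.00296 to 0.171). It was lost with no filter on low counts (edgeR adjusted p = 0.0649), without parental 96 h replicate 1 (0.143), 2 (0.165) or 3 (0.107), and without LB2 96 h replicate 1 (0.113), 2 (0.171) or 3 (0.0602). Untreated parental cells, with 10 counts, were at least 6.27-fold higher than untreated LAC, where all 4 libraries were at 0 and 3 counts over the group set the bound. Without LAC 0 h replicate 2, the deepest of that group, the bound was 2.79-fold. The call between these groups (edgeR adjusted p = 0.0132) likewise rests on a filter passed through LB1 and LB2. It was lost without parental 0 h replicate 2 (edgeR adjusted p = 0.0592) or LAC 0 h replicate 2 (0.0589), in a range from 0.00763. No change of KRT17 on auxin within a line was called.

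KRT23, a type I keratin (ENSG00000108244.17, 17:40922700-40937646, minus strand), had 51 counts in all, spread over 21 libraries, and at most 0.967 CPM in any. VIM (ENSG00000026025.16, 10:17228241-17237593, plus strand) had 283 counts over 41 libraries and at most 1.61 CPM; its merged exons share 656 bases with the antisense gene VIM-AS1. Both failed the low-count filter. Fitted without the filter, edgeR called each in 0 of 23 comparisons (lowest adjusted p 0.36 for KRT23 and 0.185 for VIM), with 0 and 1 at an unadjusted p under 0.05. For VIM the parental line had 22, 40 and 6 counts at 0, 16 and 96 h, LAC 29, 35 and 32, LB1 12, 44 and 23, and LB2 9, 26 and 5. Against group totals of 28539152 to 84965678 counts, VIM reached at most 0.773 CPM over a group, where 3 counts over a group correspond to 0.0353 to 0.105 CPM. Of 12 tested genes of epithelial-mesenchymal transition in a list of 18, 0 were called in LAC at 96 h, 1 rose and 1 fell in LB1 (FN1, encoding fibronectin, log2 0.86, and S100A4 −1.12), and 1 fell in LB2 (OVOL2, a repressor that sustains the epithelial state, −1.01). In the parental line 2 rose and 3 fell. These counts stand against 15.4%, 3.17%, 3.55% and 7.78% of all genes called in LAC, LB1, LB2 and the parental line. They moved with the setting: LAC had 1 lower with the trend removed or with RLE scaling and 1 higher with library size only, LB1 had 1 higher and 3 lower and LB2 0 and 2 with the trend removed. The parental line had 3 and 4 with the trend removed and 1 and 4 with RLE scaling or library size only.

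Genes that anchor the filaments at cell junctions were examined as a list. Of 19 tested desmosome and plakin genes in a list of 23, 10 fell and 1 rose in LAC at 96 h, where 8.64% of all genes fell; their median was log2 −0.38 against 0.03 for all genes. PLEC, the plakin that links filaments to the nuclear envelope and to hemidesmosomes, fell by a log2 value of 1.54 (edgeR adjusted p = 0.000129), and EPPK1 (epiplakin) gave −1.39 and EVPL (envoplakin) −1.01. The LAC libraries of PLEC were widely spread at 0 h, from 1098 to 3108 CPM (1858 ± 868, SD, n = 4). At 96 h they ran from 412 to 861 CPM (638 ± 204). Fold changes in this comparison followed GC content (rho −0.66), and no PLEC value without single libraries is given here. DSC2, a desmosomal cadherin, rose by 0.73 (edgeR adjusted p = 0.000708). Free of the GC and length trend the counts were also 10 and 1, and with library size only they were 8 and 3. That scaling moved the median of all genes from 0.03 to 0.15 and the share of higher calls among all genes from 43.8 to 66.8%.

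In LB1 at 96 h 5 of these anchors fell and 0 rose, with a median of −0.30 against 0.04 for all genes, of which 2.12% fell. Free of the GC and length trend 9 fell and 0 rose. In this comparison the share of higher calls among all genes was 33.1% and, with library size only, 47.5%. ITGB4, the integrin of hemidesmosomes, gave −1.01 (edgeR adjusted p = 0.000871), PPL (periplakin) −0.90 and ITGA6 −0.76. In LB2 at 96 h 1 rose and 0 fell (1.95% of all genes rose and 1.6% fell), and with the trend removed 1 rose and 2 fell. In the parental line 2 rose and 2 fell at 96 h (3.94% and 3.84% of all genes), against 2 and 4 with RLE scaling or library size only and 3 and 4 with the trend removed. At 16 h edgeR called 0 of the 19 in LAC and in LB1, where 1.78% and 1.5% of all genes were called. With the trend removed 1 rose in LAC, and 4 rose and 1 fell in LB1; RLE scaling or library size only gave 1 lower in LAC. Tested as a difference from the parental change at 96 h, 3 of the 19 were called in LAC, all lower, against 7.4% of all genes in either direction. These were PLEC (−1.48, edgeR adjusted p = 0.0159), PKP3 (−1.24, 0.00904) and JUP (−0.75, 0.0249). The PLEC difference uses the same widely spread LAC libraries at 0 h. The LAC count was 4 with the trend removed and 2 with library size only. In LB1 and LB2 the same test called 0 of the 19, against 1.04% and 0.368% of all genes. With the trend removed 2 were lower in LB1 and 0 in LB2. The fall of anchors in LB1 was therefore not shown to exceed the parental change in the reported fit.

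Other cytoplasmic intermediate filament genes were mostly silent: 18 of 58 had enough counts, and their highest median over all libraries was 18.5 CPM for KRT10. KRT81 had 29.7 ± 13.5 CPM (SD, n = 4) in LB2 at 0 h against 10.8 ± 2.61 in parental cells, and 23.4 ± 1.81 (n = 3) against 3.37 ± 1.27 at 96 h. Against the parental line at 96 h, added after the data were seen, 4 of 18 were higher and 0 lower in LB2. Of all genes, 3.11% were higher and 4.03% lower there. Before auxin 1 was higher and 1 lower (3.91% and 4.3% of all genes). In parental cells 3 fell and 0 rose at 16 h (KRT81 log2 −2.26, KRT34 −1.21 and KRT86 −1.08), and 2 fell at 96 h (KRT34 −1.77 and KRT81 −1.66), where 4.78% and 3.84% of all genes fell. KRT34 fell in LAC at 96 h (−1.53), where 8.64% of all genes fell, and KRT81 in LB2 at 16 h (−1.94), where 0.377% did. KRT34, KRT81 and KRT86 encode hair keratins with near-identical relatives, and their counts are uncertain. Of 131 keratin and vimentin pseudogenes 24 were tested, led by KRT8P3 at a median of 27.1 CPM, far below KRT8; reads shared with their parent genes could be assigned to either.

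Across the 12 group means of log2 CPM, the members did not follow 1 pattern. Pearson's r was 0.69 for KRT8 with KRT19, 0.64 with KRT80 and 0.62 with KRT18, but 0.02 for KRT18 with KRT19 and −0.34 for KRT80 with KRT20. These are descriptions over 12 points that share libraries, depth and GC effects. Among 9673 protein-coding genes, the 2 most like KRT20 were BDH1 (r = 0.86) and IRF2 (0.85), those most like KRT80 were IGF2BP2 and NFKB2 (both 0.97), and those most like KRT7 were REXO2 and CHCHD1 (both 0.94). For KRT8 they were GATC (0.89) and TRABD (0.87), for KRT18 WRNIP1 (0.91) and TNFRSF21 (0.88), for KRT19 SIRT7 (0.96) and RPS6KL1 (0.94), and for KRT17 SP100 (0.90) and MTRF1 (0.86).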

How the data were processed

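The values are raw read counts of each gene in the 46 libraries, deposited as 1 table together with the merged exon length of each gene in bases. Per the labels' protocols, libraries were made from ribosomal-RNA-depleted total RNA with a stranded kit and sequenced in pairs. Per the submitters' processing notes, the tools were STAR 2.7.10a, SAMtools 1.10, deepTools 3.4.5, featureCounts 1.6.4 and DESeq2 1.40.2, on GRCh38. Their roles, the strand setting and the handling of reads with several matches are not given in the sources used here, so counts of overlapping, antisense and near-identical genes are uncertain. All 46 columns were matched to libraries by name. One gene, broken over 3 lines, was left out. A symbol was found for 42341 of 62756 genes (67.5%), and 92.8% were in GENCODE 29, the source of GC content and of first-numbered transcripts. Overlaps were computed from the exon positions in the count table.

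Counts were tested with edgeR 4.0.16 in R 4.3.3 (quasi-likelihood, two-sided, TMM scaling, filterByExpr): 1 fit of all 46 libraries with 1 coefficient for each of 12 groups, and Benjamini-Hochberg adjustment over 21484 genes. CPM are TMM-scaled. The alternatives were DESeq2 1.42.0, RLE scaling, scaling by library size only, no filter, the compared groups alone, a replicate block, removal of each library's trend of log counts on GC content and length, that trend with the block, leaving out libraries under 5000000 counts, and leaving out each library. Totals of 479446 to 37309421 counts set the precision: 3 counts are the most that a count of 0 allows. Over 66 pairs of replicates, chi-square was at least 3.97 per degree of freedom, so no library was a duplicate within sampling noise. On simulated data for LB1 at 96 h (19107 genes) 38% of genes with a true log2 change of 1 and 72% of those with 1.5 were recovered, with 6% false calls. The simulation used an assumed spread and no GC or length trend, so these rates need not hold for the real libraries.

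The members and gene lists were chosen with earlier results of these data known. All 9 members are described in the comparisons. Of other lists, the text names called genes with the largest change, at most 3 in each direction per comparison, and for each member the 2 genes most alike in pattern. Some genes were named after their values were seen: CDX2 as the factor of the motif, and KRT10 and KRT8P3 as the most abundant of their lists. The same holds for the markers EPCAM, VIL1, GPA33, LGALS4, COL1A2, DCN and VWF. Deviations of same-numbered replicates correlated over 0.1 in every pair only for LAC at 16 against 0 h (0.12 to 0.69) and for LB2 against the parental line at 96 h (0.14 to 0.47). The numbers come from the labels, which do not say that they mark a shared batch.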

Additional observations from a re-analysis of the deposited data

Results flagged for a closer look

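In 7 of 60 groups of 4 libraries with a tested member, 1 library stood apart from the other 3 in CPM, its gap to the nearest exceeding Dixon's 95% limit for the range; chance flags about 5% of groups. KRT8 was at 6007 in parental 96 h replicate 2 (others 3725 to 3903) and 6826 in LB2 0 h replicate 1 (others 3299.9 to 3605). KRT19 was at 916 in that same parental library (others 506 to 573) and 1496 in that same LB2 library (others 617 to 682). KRT19 was also at 1351 in LAC 0 h replicate 1 (others 603 to 689) and at 553 in parental 16 h replicate 1 (others 707 to 736). KRT20 was at 59.7 in parental 0 h replicate 4 (others 69.8 to 71.7), a library under 5000000 counts. The cause of these values was not tested.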

How the results depend on the processing

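Of 37 member comparisons called in the reported fit or in an alternative other than leaving out 1 replicate, 0 changed direction in any alternative run. Of the other 124, 55 changed sign somewhere, the largest at log2 1.12. Counts of called members moved by over 1.5 times as follows, the count reported above coming first; in each case the cause was not tested. Parental 96 h (0) had 1 with RLE scaling and without libraries under 5000000 counts, and 2 with library size only, with the GC and length trend removed, with the replicate block plus that removal, with the compared groups alone and with DESeq2. LB1 16 h (0) had 1 with no filter, with the trend removed and with block plus removal, and 2 without the libraries under 5000000 counts. LB2 96 h (1) had 2 with library size only, with the trend removed and with DESeq2, and 3 with block plus removal. Differences from the parental change (0 each) had 1 for LB1 96 h and LB2 16 h with the trend removed or block plus removal, and 1 for LB2 96 h with block plus removal. With the compared groups alone, LAC 96 h fell from 3 to 1, LB2 16 h and LB2 96 h from 1 to 0, LAC against parental 0 h from 2 to 1, and LB2 against parental 0 h from 1 to 0. With no filter, LB1 and LB2 against parental 0 h went from 1 to 0.

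In the comparisons added later, LAC against parental 16 h (1) had 2 with the trend removed, block plus removal and the compared groups alone. LAC against parental 96 h (0) had 1 with the block, the trend removed, both, the compared groups alone, DESeq2 and without libraries under 5000000 counts. LB1 against parental 96 h (2) had 4 with block plus removal and 1 with the compared groups alone. LB2 against parental 16 h (2) had 1 with the compared groups alone, LB2 against parental 96 h (2) had 1 with that setting and with no filter, and LB1 against parental 16 h (2) had 1 with no filter. DESeq2 gave KRT17 no adjusted p in LB1 and LB2 against parental 16 h, so no DESeq2 count is compared there. In the fits of compared groups alone against the parental line KRT17 did not pass the filter, so that a fall of the count can come from fewer genes tested.

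Leaving out 1 replicate at a time gave 0 to 1 for parental 16 h, parental 96 h, LB1 16 h, the LAC 96 h difference, and LB1 and LB2 against parental 0 h. The 1 in the LAC 96 h difference was KRT17 without parental 96 h replicate 4 (edgeR adjusted p = 0.0259, the lowest of its alternatives, which reached 0.334). Leaving 1 out gave 1 to 3 for LAC 96 h, 1 to 2 for LB1 96 h, LAC against parental 0 h, LB1 against parental 16 and 96 h and LB2 against parental 96 h, and 0 to 2 for LB2 against parental 16 h.

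In 2 comparisons, deviations of same-numbered replicates correlated over 0.1 in every pair, which does not show that the numbers pair the samples. The replicate block changed no called member there: LAC 16 h (0 with and without) and LB2 against parental 96 h (2 with and without). Elsewhere it moved 1 call, KRT20 in LAC against parental 96 h (log2 −0.52, edgeR adjusted p = 0.0313). Scaling shifted the median of all genes by over 0.1 in several comparisons, for example from −0.04 to −0.14 (RLE) and −0.15 (library size only) in parental 16 h, where the share of higher calls went from 47% to 26.4 and 21.3%. Depth limits KRT17, KRT23 and VIM most.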
